A study of Rattus norvegicus with 6 samples.

Results

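The miR-322 cluster is a group of 6 miRNA hairpins that lie next to each other on the rat X chromosome and are read as 1 long primary transcript. Its members were taken from the deposited table by name, as every row of miR-322, miR-503, miR-351, miR-542, miR-450b and miR-450a, both arms included. This gave 12 of the 1289 rows of the table, of which 584 are known rat miRNA arms. The measurements are small RNA read counts from PC12 cells, an established line from a rat adrenal pheochromocytoma that can take on features of neurons. There were 3 libraries labelled EC and 3 labelled EN; the labels spell out neither abbreviation and give no treatment, dose or time beside the group name. All 6 libraries come from the same cell line, in a series whose title concerns endothelial exosomes carrying Netrin-1, a guidance protein for axons. Whether the replicates are separate cultures is not stated in the labels, and a p-value here reflects the variation among these libraries only, which may be technical.

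In a polycistron, the enzyme Drosha cuts each hairpin out of the shared transcript and Dicer then trims it to a short duplex. One strand of the duplex, called the 5p or the 3p arm by its side of the hairpin, is usually kept by an Argonaute protein, and the other is mostly degraded. Members of 1 transcript can therefore differ in mature level. A miRNA recognises its target mRNAs mainly through its seed, bases 2 to 8. MiR-322 is the rodent counterpart of human miR-424, and with miR-503 it is known for repressing cell cycle genes during exit from division and muscle differentiation.

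The mature sequences of all 5p arms, and of the 3p arms of miR-503 and miR-542, are shown because the comparisons of seeds and levels turn on them. They come from RefSeq on the GRCr8 assembly, which holds all 12 rows, and are written 5′ to 3′ in the order of transcription with the seed in capitals. The hairpins lie on the minus strand of chromosome X, and no other annotated miRNA gene overlaps them or lies between them. Coordinates are not given, since the submitters' processing notes name the older build Rnor 6.0.
miR-322-5p: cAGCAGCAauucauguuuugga
miR-503-5p: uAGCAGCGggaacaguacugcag
miR-503-3p: gGAGUAUUguuuccgcugccugg
miR-351-5p: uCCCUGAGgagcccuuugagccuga
miR-542-5p: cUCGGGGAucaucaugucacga
miR-542-3p: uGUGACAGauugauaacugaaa
miR-450b-5p: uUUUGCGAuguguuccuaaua
miR-450a-5p: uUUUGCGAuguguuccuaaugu

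MiR-322-5p and miR-503-5p share bases 2 to 7 and part at base 8. MiR-351-5p has the seed of the miR-125 family. MiR-450a-5p and miR-450b-5p have 1 seed and are identical over their first 20 bases, with the first difference at position 21 from the 5′ end (G21A, miR-450a-5p first). A read of 20 bases or fewer from this end matches both, and the sources used here do not give how such reads were counted. Of the 693 mature miRNAs named in the RefSeq table, no other shared a run of 12 or more bases with a member. The 2 hairpins are shown with their mature arms in capitals, because their 3p arms differ along their length, while their 5p arms differ only at the 3′ end.
miR-450b hairpin: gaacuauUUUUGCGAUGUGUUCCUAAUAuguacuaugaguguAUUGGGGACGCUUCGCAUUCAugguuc
miR-450a hairpin: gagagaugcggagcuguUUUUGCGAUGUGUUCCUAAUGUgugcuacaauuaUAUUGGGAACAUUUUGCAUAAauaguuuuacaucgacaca

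The libraries held 4521694 to 6554639 miRNA counts, and the cluster's share of them was 0.767 ± 0.049 percent (SD, n = 3) for EC against 0.715 ± 0.020 percent for EN. Levels are given in CPM after TMM scaling, which corrects for the make-up of the library. Each count was scaled to its library's summed miRNA counts over the 628 rows tested. These include newly named rows beside the known rat miRNA arms. Of the neuroendocrine and neuron-like miRNAs listed for PC12 cells, miR-9a-5p had a mean of 1442 ± 210.4 CPM for EC and 1095 ± 138 CPM for EN, and miR-7a-5p one of 1055 ± 80.2 and 1343 ± 131 CPM. The neuronal miR-124-3p lay at 0.419 ± 0.337 and 0.565 ± 0.465 CPM and the neuroendocrine miR-375-3p at 2.65 ± 0.61 and 2.75 ± 0.46 CPM, so both markers were close to 0. The summed level of the 7 listed rows was 2214 to 2730 CPM in EC and 2286 to 2765 CPM in EN. The endothelial miR-126a-3p had means of 1049 ± 37.0 and 1103 ± 84.4 CPM, and the scarcer miR-126a-5p was lower in EN, at 33.2 ± 5.55 CPM beside 60.3 ± 5.20 CPM (log2 fold change -0.86, edgeR adjusted p = 0.0471). Summed blood cell markers, 4 rows of 5 listed, ranged from 92.9 to 124.02 CPM in EC and from 155 to 178 CPM in EN. Most of this sum was miR-150-5p, at 99.2 ± 18.1 and 141 ± 16.9 CPM (edgeR adjusted p = 0.151). MiR-451-5p was higher in EN, at 23.3 ± 6.26 CPM beside 8.10 ± 2.60 CPM (log2 fold change 1.52, edgeR adjusted p = 0.0471). MiR-144-3p and miR-223-3p were close to 0. Whether the blood cell markers bear on the cluster's values was not tested.

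The cluster was led by miR-542-5p and miR-322-5p, whose hairpins are the fourth and the first in the transcript. MiR-542-5p gave 3361, 3197 and 2923 CPM across EC replicates and 2973, 3366 and 3170 CPM across EN replicates. The EC libraries had 2873, 3253 and 2647 CPM of miR-322-5p, while the EN libraries had 2588, 2457 and 2740 CPM. In both miRNAs the groups overlapped, and so did the ranges of the one and the other, with miR-542-5p above miR-322-5p in 5 of 6 libraries. The miR-542 hairpin, both arms summed, gave 44.1 ± 2.14 percent of the cluster's counts and the miR-322 hairpin 37.9 ± 2.30 percent (SD over 6 libraries).

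MiR-450a-5p, from the last hairpin, came next, with 612, 740 and 734 CPM across EC replicates and 664, 609 and 616 CPM across EN replicates. Its range lay below those of the leading pair and above those of all other members. MiR-351-5p and miR-450b-5p followed, with means over 6 libraries of 234 and 171 CPM and overlapping ranges. Counted together, the 2 near-identical miR-450 5p arms stood between 759 and 938 CPM. MiR-450a-5p exceeded miR-450b-5p by 3.36 to 4.16 times in every library, while the 3p arms ran the other way. MiR-450b-3p stood at 69.3 to 108 CPM, and miR-450a-3p had 1, 6 and 4 counts in EC and 0, 6 and 0 in EN. The 0 counts in EN replicates 1 and 3 allow up to 0.555 and 0.657 CPM, taking 3 counts as the limit, which covers counting error only.

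MiR-503 stood lowest among the hairpins, although its hairpin is the second in the transcript, directly after miR-322. Its more abundant arm, miR-503-3p, stood at 97.8, 95.6 and 95.0 CPM in EC and 71.2, 79.6 and 110.2 CPM in EN. MiR-322-5p exceeded it by 24.9 to 36.3 times in single libraries. Over the 6 hairpins, the mean level of the more abundant arm spanned 34.6-fold, from miR-503-3p to miR-542-5p. Levels did not fall or rise steadily along the transcript. The mature sequences are 20 to 25 bases long, so length alters a count of reads little, but how well each sequence is captured in a library was not tested.

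**Figure D1:**
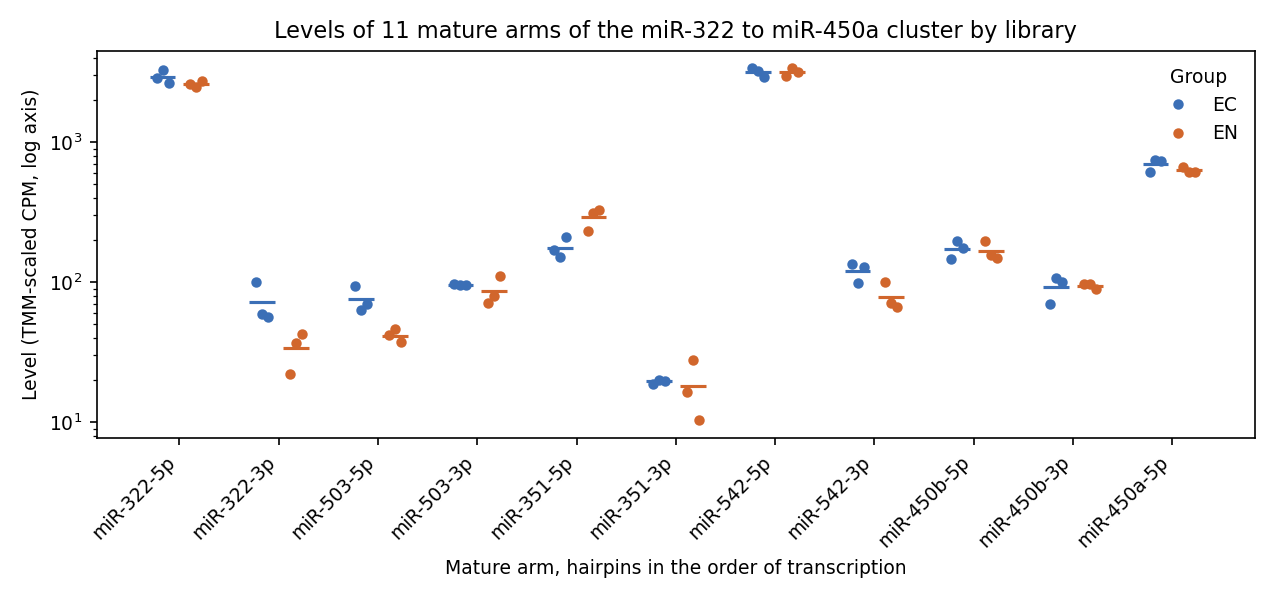
Level of 11 mature arms in each library, as TMM-scaled CPM on a log axis, with hairpins in the order of transcription, points for libraries and lines for group means (n = 3). MiR-542-5p and miR-322-5p lie above 2450 CPM in every library, miR-503-5p lies below 94 CPM, and the EC and EN points of miR-351-5p, miR-503-5p and miR-322-3p do not overlap; miR-450a-3p, at 0 to 1.37 CPM, is left out.

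Comparing EN with EC addresses which members differ between the groups. MiR-351-5p, from the third hairpin, measured 170, 150.3 and 211 CPM in the EC libraries, against 232, 310 and 330 CPM in the EN libraries. Every EN library lay above every EC library, with a log2 fold change of 0.72 (SE 0.19). It did not pass edgeR's quasi-likelihood test, with a Benjamini-Hochberg adjusted p of 0.0852 over the 628 rows tested.

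MiR-503-5p, of the neighbouring hairpin, gave 93.7, 62.9 and 69.8 CPM across EC replicates and 41.6, 46.0 and 37.2 CPM across EN replicates. Here every EN library lay below every EC library, with a log2 fold change of -0.86 (SE 0.19) and an adjusted p of 0.0559 in the edgeR test. MiR-322-3p, the scarce arm of miR-322, measured 100.4, 59.1 and 56.4 CPM in the EC libraries, against 22.2, 36.8 and 42.9 CPM in the EN libraries. These groups did not overlap either, and EC replicate 1 stood apart upward and EN replicate 1 downward. Its log2 fold change was -1.08 (SE 0.32), with an adjusted p of 0.0951 in the edgeR test. MiR-542-3p, an arm known for repressing the survival gene survivin, measured 136, 98.4 and 128 CPM in the EC libraries, against 99.9, 70.6 and 66.2 CPM in the EN libraries. The highest EN library lay above the lowest EC library, and its log2 fold change was -0.61 (SE 0.22) with an adjusted p of 0.147 in the edgeR test.

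The other 7 tested members had log2 fold changes between -0.17 and 0.031. They include both leading members, miR-542-5p at 0.0041 (SE 0.10) and miR-322-5p at -0.17 (SE 0.11), and miR-450a-5p at -0.14 (SE 0.12). The summed miR-450 5p arms, a row formed after their sequences were compared, had -0.11 (SE 0.14). All of these groups overlapped. A missed threshold does not show that EC and EN are alike in them, and the standard errors give the precision.

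In all, 0 of 11 tested members passed edgeR's test, where 3.98 percent of all tested rows did, and miR-450a-3p was too low to be tested. At an unadjusted p under 0.05 there were 4 of 11 members, miR-351-5p, miR-503-5p, miR-322-3p and miR-542-3p, beside 21.7 percent of all tested rows. DESeq2 called the same 4, the first higher and the others lower in EN, where it called 18.5 percent of the rows it gave an adjusted p. Limma-voom called 0 members and 2.55 percent of all tested rows. Groups did not overlap in 3 of 11 members, or 27.3 percent, beside 29.6 percent of all tested rows, a share near the background. The log2 fold change was negative in 8 of 11 members, beside 49.2 percent of all tested rows, with a median of -0.14 beside 0.020 over all. When newly named rows were left out, it was negative in 7 of 11 members, with a median of -0.065 beside 0.0061 over all. Without EC replicate 2, miR-503-5p passed edgeR's test, at -0.95 with an adjusted p of 0.0417, as did 6.13 percent of all tested rows. With any other single library left out it did not pass, with adjusted p from 0.0938 to 0.190 in edgeR's test. Its log2 fold change was -0.66 without EC replicate 1. Without a filter on low counts, miR-503-5p (adjusted p = 0.0151) and miR-351-5p (adjusted p = 0.0342) passed edgeR's test, as did 3.41 percent of all rows.

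Members within 1 library, neighbours or not, can be compared without any scaling between libraries. The ratio of miR-351-5p to miR-503-5p counts was 1.81, 2.39 and 3.02 in EC and 5.56, 6.74 and 8.86 in EN. Groups did not overlap, and the means were 2.40 ± 0.60 and 7.05 ± 1.67 (SD, n = 3). The lack of overlap was fixed in advance, as miR-351-5p lay higher and miR-503-5p lower in every EN library than in any EC library. This ratio was chosen after its values were seen and is a description, with no test. The ratio of miR-322-5p to miR-503-5p was 40.1 ± 10.7 in EC and 63.1 ± 10.1 in EN. Its lowest EN library, at 53.5, lay just above its highest EC library, at 51.7. With the more abundant miR-503-3p in place of miR-503-5p, the ratio was 30.4 ± 3.20 in EC and 30.7 ± 5.73 in EN. Those groups overlapped. In the ratio of miR-351-5p to miR-322-5p the groups did not overlap, at 0.062 ± 0.017 in EC and 0.112 ± 0.020 in EN. The same held for miR-542-5p to miR-351-5p, at 18.3 ± 3.92 and 11.1 ± 1.63. By contrast, the ratio of miR-542-5p to miR-322-5p was 1.09 ± 0.09 in EC and 1.23 ± 0.13 in EN. That of miR-542-5p to miR-450a-5p was 4.60 ± 0.79 and 5.05 ± 0.53, and both overlapped between groups. None of these ratios was planned or tested, and the share of ratios without overlap over all rows was not computed. Every ratio given here without overlap holds miR-351-5p or miR-503-5p, so these are not separate findings.

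**Figure D2:**
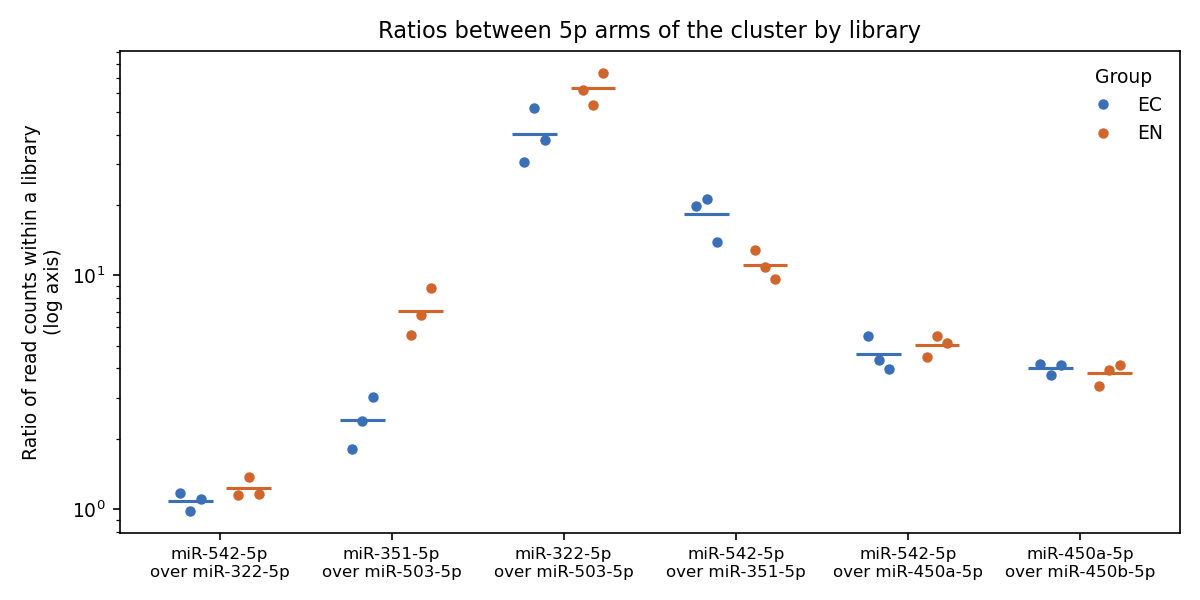
Ratio of read counts of pairs of 5p arms within each library, on a log axis, with points for libraries and lines for group means (n = 3). MiR-351-5p over miR-503-5p is 1.81 to 3.02 in EC and 5.56 to 8.86 in EN, while miR-542-5p over miR-322-5p stays between 0.983 and 1.37.

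Over the 6 libraries the members did not all vary in the same direction. Among 55 pairs of tested members, Pearson's r of log2(CPM + 1) was positive in 33 and negative in 22, from -0.79 to 0.86 with a median of 0.10. The near-identical miR-450a-5p and miR-450b-5p had r = 0.80 and miR-322-3p and miR-503-5p had 0.86. The 2 leading members, miR-542-5p and miR-322-5p, had 0.14, and miR-351-5p and miR-503-5p had -0.78. These are descriptions over 6 points that share library, scaling and, in part, the difference between groups. MiR-542-5p varied little, from 2923 to 3366 CPM, which limits what a low r with it can show. The r over pairs of all tested rows was not computed.

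The arms of each hairpin were used unequally. The 5p arm was the more abundant in 5 of 6 hairpins, beside 66.7 percent of 78 known miRNAs whose 2 arms each averaged at least 20 counts. MiR-450a, with at most 6 counts of its 3p arm in a library, is among the 6 hairpins but not among the 78. The 5p arm held 96.6 to 99.1 percent of counts in miR-322, 95.8 to 97.96 percent in miR-542, 88.2 to 96.97 percent in miR-351 and 61.4 to 67.95 percent in miR-450b. MiR-503 was the exception, with its 3p arm ahead in all 6 libraries by 1.04 to 2.96 times. The miR-450b share and its arm ratio below also rest on how reads matching both miR-450 5p arms were counted, which is not known here. The more abundant arm began with U in 3 of 6 hairpins, those of miR-351, miR-450b and miR-450a, beside 51.3 percent of the 78 pairs.

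Arm use in EN against EC was tested on log2((5p + 1)/(3p + 1)). For miR-322 the ratio was 4.84, 5.78 and 5.55 in EC and 6.85, 6.05 and 5.99 in EN, a difference of 0.91 (SE 0.35). For miR-503 it was -0.060, -0.60 and -0.44 in EC and -0.77, -0.79 and -1.56 in EN, a difference of -0.67 (SE 0.28). Thus the miR-322 ratio was higher in every EN library and the miR-503 ratio lower. The differences were 0.92 (SE 0.41) for miR-351, also without overlap, 0.63 (SE 0.26) for miR-542 and -0.11 (SE 0.18) for miR-450b, both with overlap. Without EN replicate 3 the differences of miR-351 and miR-503 were smaller, at 0.48 and -0.41.

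None of these 5 pairs passed limma's test with Benjamini-Hochberg adjustment over 107 pairs, with adjusted p from 0.196 to 0.736, where 5.61 percent of all pairs passed. The count at an unadjusted p under 0.05 was 1 of 5, beside 21.5 percent of all pairs. Groups did not overlap in miR-322, miR-503 and miR-351, beside 29.9 percent of all pairs. The 3p counts behind the ratio of miR-351 were low, from 47 to 129 in a library.

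**Figure D3:**
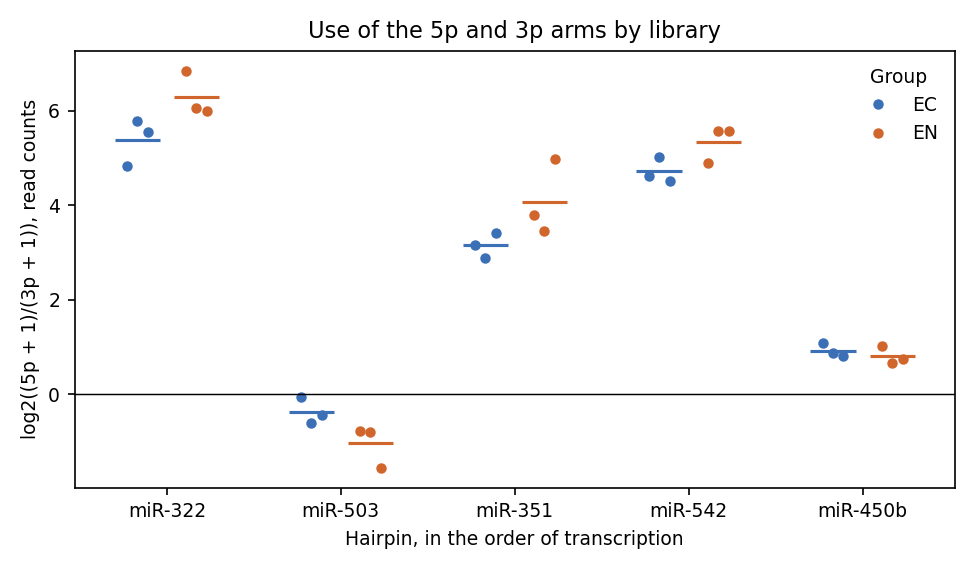
Log2 ratio of 5p to 3p read counts, with 1 added to each, for 5 hairpins in each library, with points for libraries and lines for group means (n = 3). MiR-503 lies below 0 in every library, miR-322 and miR-542 lie above 4.5, and EN points lie above EC points for miR-322 and miR-351.

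The choice of library total moved the cluster as it moved all rows. The authors' RPM values divide each count by a larger total, and the miRNA share of that total was 31.9 ± 0.90 percent (SD, n = 3) for EC and 25.8 ± 0.97 percent for EN; the part of this gap in the values was not tested. In RPM the cluster summed to 2450 ± 212 in EC and 1843 ± 76.8 in EN. The deposited RPM of miR-542-5p was 1104, 1048 and 903 in EC and 804, 814 and 810.1 in EN, and that of miR-322-5p was 943, 1066 and 817 in EC and 699, 594 and 700.3 in EN. On this scale EN lay below EC without overlap in both, and in 7 of the 11 tested members, beside 33.9 percent of all tested rows.

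With these totals in edgeR, the median log2 fold change of all tested rows moved from 0.020 to -0.30 and that of the members from -0.14 to -0.47. MiR-503-5p at -1.19, miR-322-3p at -1.43, miR-542-3p at -0.93 and miR-322-5p at -0.50 then passed as lower, with adjusted p of 0.0117, 0.0261, 0.0371 and 0.0484 in edgeR's test. Among all rows there were then 13 higher and 88 lower calls, the latter 14.2 percent of those tested, beside 13 and 12 with TMM. MiR-351-5p kept a positive log2 fold change, 0.38 (SE 0.18), and did not pass.

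**Figure D4:**
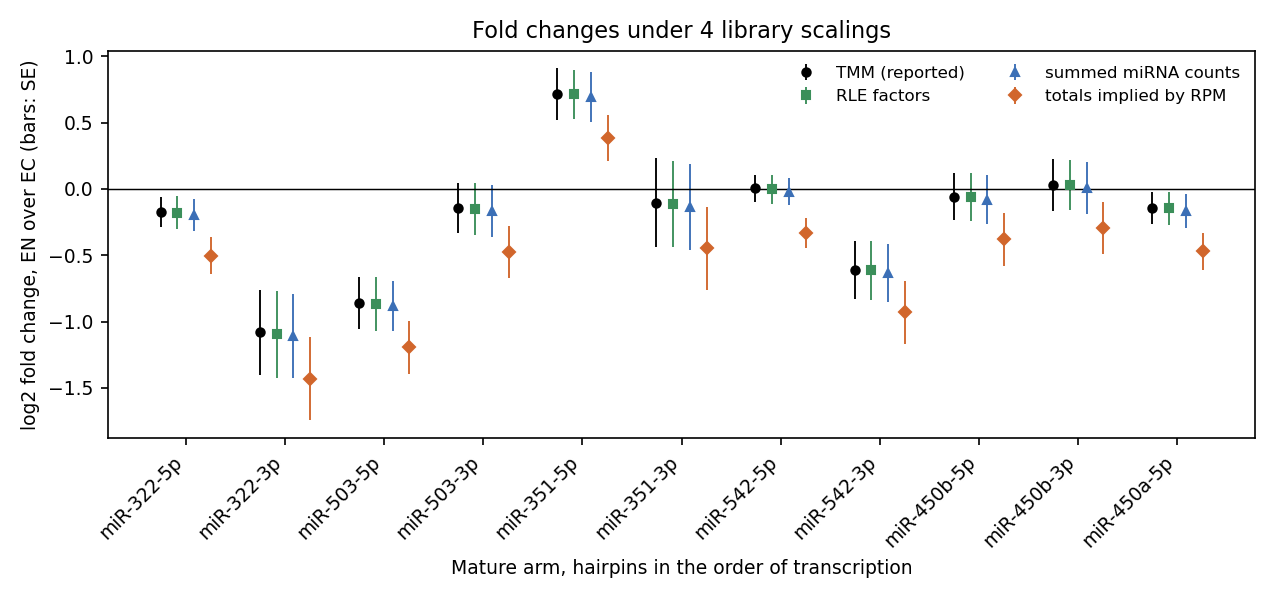
Log2 fold change of EN over EC for 11 mature arms, with bars for the standard error, under TMM, RLE factors, summed miRNA counts and the totals implied by the authors' RPM. The totals implied by RPM lie lower for every arm, as does the median of all rows (-0.30 against 0.020), and miR-351-5p stays above 0 under all 4.

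Seed relatives outside the cluster were compared because they could share targets with it. The seed of miR-322-5p occurs in miR-16-5p, with means of 17303 ± 2729 CPM for EC and 13085 ± 1554 CPM for EN, in miR-15b-5p at 902 ± 19.9 and 1139 ± 135 CPM, in miR-497-5p at 149 ± 8.05 and 143.8 ± 7.68 CPM and in miR-195-5p at 14.0 ± 9.48 and 3.59 ± 1.38 CPM. MiR-322-5p thus stood below miR-16-5p and above the other 3. None passed edgeR's test, with log2 fold changes of -0.40 (SE 0.14), 0.34 (SE 0.12), -0.053 (SE 0.13) and -1.95 (SE 0.59) and adjusted p from 0.108 to 0.843. These signs differ within 1 seed.

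The seed of miR-351-5p occurs in miR-125a-5p, with means of 3656 ± 457 CPM for EC and 3121 ± 48.6 CPM for EN, with a log2 fold change of -0.23 (SE 0.11) and an adjusted p of 0.296 in edgeR's test. It also occurs in miR-125b-5p, which stood at 85.8 CPM in EC replicate 3 and 69.3 CPM in EN replicate 2, and at 13068 CPM or more in the other libraries. So miR-351-5p, at 234 CPM over 6 libraries, was a small part of the counts with this seed. No known row outside the cluster had the seeds of miR-542-5p, miR-542-3p or the miR-450 5p arms, among the 530 of 584 known rows with a RefSeq sequence.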

How the data were processed

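Mature miRNAs were measured by small RNA sequencing in 6 libraries, 3 EC and 3 EN, grouped by the labels. The authors deposited whole-number read counts per mature miRNA and, beside them, RPM values. The averages in the deposited table, of RPM and of counts, were not used. Per the submitters' processing notes, HISAT2 2.0.5 and Rnor 6.0 were used; the sources used here do not give their role, the counting program, its strand rule or how it treated a read with several matches. Each RPM equals the count divided by 1 library total, between 17861218 and 21207786 reads, within 0.0015.

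Counts were fitted with edgeR 4.0.16 (R 4.3.3): filterByExpr, TMM factors, robust quasi-likelihood test, EN against EC without a replicate block, Benjamini-Hochberg adjustment over 628 rows, threshold 0.05. SE is |log2 fold change|/√F. Arm use was tested by limma 3.58.1 where each arm averaged at least 20 counts. Alternatives included DESeq2 1.42.0, limma-voom, other scalings and filters, and each library left out; the summed miR-450 5p row was chosen after seeing the data. Tests were first run on simulated data. Those outcomes are not given here, so they do not tell how often a change in these libraries would be found. Members and lists were chosen with earlier results of these data known. All members are named; seed relatives are up to 4 of highest level per seed. Correlations use log2(CPM + 1). Tables and figures used Python 3.11.15, pandas 2.3.3 and matplotlib 3.10.9.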

Additional observations from a re-analysis of the deposited data

How the results depend on the processing

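Over all rows, the 25 calls became 101 with library totals implied by RPM, 88 with DESeq2 (152 rows without an adjusted p), 44 without a filter and 16 with limma-voom. Members called, 0 as reported, were 4 with those totals, 4 with DESeq2, 2 without a filter, 1 with no scaling factors and 1 with a minimum mean of 10 CPM, the last 2 being miR-503-5p, where 5.41 and 9.89 percent of all tested rows passed. Leaving out 1 library gave 2 to 39 calls over all rows (10, 39 and 8 without EC replicates 1, 2 and 3, and 34, 3 and 2 without EN replicates 1, 2 and 3), 0 to 1 among members and 1 to 13 in arm use, none of the latter in the cluster. The cause was not tested.

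Under a replicate block on the library number, 2 rows passed, with 0 members, and arm use calls fell from 6 to 0. The numbers were not taken to pair the libraries, because no label says that a number marks a shared batch. The deviations of EC and EN libraries of 1 number had r of 0.077, -0.052 and 0.0070. Those of libraries of different number had r from -0.17 to 0.14. These values do not settle whether the libraries are paired.

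Of 186 alternative fits of member rows, 157 kept their direction and side of the threshold, 13 newly passed and 16 changed sign. All 50 fits of arm ratios kept both direction and side. Those with another minimum count or a replicate block give the same difference by construction, so only their side of the threshold could change. Without 1 library the arm differences were 0.63 to 1.10 (miR-322), 0.48 to 1.23 (miR-351), -0.81 to -0.41 (miR-503), 0.51 to 0.85 (miR-542) and -0.22 to -0.036 (miR-450b). MiR-542-5p became -0.0034 with RLE factors and with DESeq2, -0.020 with no scaling factors, -0.33 with totals implied by RPM, -0.025 without a filter, -0.017 with a minimum of 10 CPM and -0.0047 without the 5 most abundant rows. MiR-450b-3p became -0.30 with totals implied by RPM and miR-450b-5p 0.019 without newly named rows. Without 1 library, miR-542-5p ranged from -0.036 to 0.058, miR-450b-3p from -0.13 to 0.18, miR-450b-5p from -0.20 to 0.074 and miR-351-3p from -0.50 to 0.18. MiR-351-5p, at 0.62 to 0.87, and miR-503-5p, at -0.95 to -0.66, kept their signs there. Depth limits miR-450a-3p, with at most 6 counts in a library.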

Other observations

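Other miRNA clusters of the X chromosome gave a setting for the spread of levels along 1 transcript. Among the more abundant arms, the miR-221 and miR-222 pair spanned 10.7-fold, the 5 named miRNAs found of the miR-188 to miR-660 cluster 7.53-fold and miR-374 and miR-421 2.96-fold, beside 34.6-fold over the 6 hairpins of the miR-322 cluster. These spans cover different numbers of hairpins and were not tested against each other. In EN against EC, all 4 tested rows of miR-221 and miR-222 had positive log2 fold changes, from 0.10 to 0.51, and all 4 of miR-374 and miR-421 negative ones, from -0.75 to -0.066. The miR-188 to miR-660 rows ran from -1.36 to 0.78 and those of the miR-322 cluster from -1.08 to 0.72, with both signs in each. In edgeR's fit over all rows, 1 of 4 tested rows of miR-221 and miR-222 passed as higher in EN. As lower, 1 of 8 passed in the miR-188 to miR-660 cluster and 1 of 4 in miR-374 and miR-421. These counts stand beside 0 of 11 in the miR-322 cluster and 3.98 percent of all tested rows, and a difference between clusters was not tested.

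Among 161 known rows outside the cluster with a mean of 100 CPM or more over the 6 libraries, the 3 whose log2(CPM + 1) followed miR-542-5p most closely over 6 libraries were miR-501-3p (r = 0.92), miR-340-3p (r = 0.88) and miR-192-5p (r = 0.80), beside a median r of 0.050. MiR-501-3p ranged from 9.01 to 334 CPM between libraries, while miR-542-5p ranged from 2923 to 3366 CPM. With 6 points and 161 rows this is a description.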
